A study of Rattus norvegicus with 6 samples.

Results

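RNA sequencing of neonatal rat cardiac fibroblasts (NRCFs) contained 54 genes that were counted in every Vector library and almost absent from the libraries labelled FTO. A gene belonged to this group when it had at least 10 counts in each of the 3 Vector libraries and at most 3 counts in each of the 3 libraries labelled FTO overexpression. Members were thus chosen by their counts in these 6 libraries. Symbols starting with C1q, Kcn, Trim or Col were left out. The 54 genes were 0.437% of the 12348 genes with at least 10 counts in every Vector library, among 21857 symbols in all. The same count rule applied in the opposite direction was met by 99 genes.

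NRCFs are primary cells grown from digested hearts of healthy Sprague-Dawley pups within 3 days of birth, although the deposited labels name the strain "Noway". Fibroblasts were separated from heart muscle cells by how quickly they attach to the dish, so the cultures can carry other attaching heart cells, such as macrophages. Cells of the Vector group (genotype label WT) received the empty plasmid, and cells of the other group received a plasmid carrying FTO, the enzyme that removes the m6A mark from RNA. Nothing in the labels says whether the 3 libraries of a group came from separate cultures, so p-values measure the spread between these libraries. Fto itself was counted at 88.3 ± 1.2 CPM (counts scaled to library size, mean ± SD, n = 3) in Vector and 92.3 ± 1.32 in the libraries labelled FTO (log2 fold change 0.06, SE 0.0468, edgeR adjusted p = 0.239), so the counts of these libraries show no detectable rise of the targeted gene. The authors report that the transfection worked by qRT-PCR and by FTO protein. Whether those were the cells sequenced is not stated. Total counts ran from 13178952 to 17857999 per library, and 12941 genes could be tested.

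Most of the named genes are known from cells other than fibroblasts. Resident macrophages carry surface receptors for chemokines, nucleotides, lipids and cytokines, which guide their movement and their contact with other cells. Neurons and glia use adhesion proteins, glutamate receptors and calcium channels, and several of those genes are also read at a low level elsewhere. Promoters of genes used in nearly every cell tend to be rich in CG dinucleotides (CpG), whereas promoters of genes tied to particular cell types are more often poor in them.

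The promoters of the group held fewer CpG than those of other genes present in Vector. Of the 54 genes, 38 had an entry in the RefSeq promoter table (assembly GRCr8), which holds 250 bases before and 50 bases after 1 annotated start per gene. The median was 7 CpG in the 300 bases, against 21 in 9827 other genes present in Vector and 17 in the 2669 others whose Vector counts lay in the same range. Over all 27457 promoters of the table the median was also 7. At least 15 CpG were found in 6 members (15.8%), against 71.6% and 57.6% in those comparison sets and 34.6% of all promoters. The 6 were Espn, Hoxd9, Rimkla, St8sia2, LOC100362176 and Wscd2, with 31, 27, 26, 22, 21 and 18 CpG. Olr59, Sh2d1b and Cntn3 had 0. Among genes in the same range of Vector counts, 27.3% of those under 15 CpG and 26.5% of those with 15 or more were called lower in the libraries labelled FTO. These shares count decreases of any size, so they do not describe losses as deep as those of the members. Whether CpG content bears on the group was not tested.

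Promoters of 3 members are printed to show this range, from a CpG-poor testis gene and a CpG-poor blood cell gene to a CpG-rich enzyme gene. They were chosen because the printed bases lie wholly before the annotated gene. Each line gives the 250 bases before the start, read 5′ to 3′ on the strand of the gene, with CG and TATAAA (on either strand) in capitals. Hils1 lies on the plus strand at chr10:80410111-80410360 of GRCr8 and has 1 CpG, Sh2d1b on the plus strand at chr13:85017828-85018077 has 0 CpG and 1 TATAAA read on the opposite strand, and Rimkla on the minus strand at chr5:138384133-138384382 has 17 CpG.
Hils1: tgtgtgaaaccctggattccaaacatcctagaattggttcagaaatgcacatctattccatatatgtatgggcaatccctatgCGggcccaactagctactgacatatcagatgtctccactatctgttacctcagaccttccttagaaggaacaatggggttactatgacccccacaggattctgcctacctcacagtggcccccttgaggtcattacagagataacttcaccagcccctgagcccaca
Sh2d1b: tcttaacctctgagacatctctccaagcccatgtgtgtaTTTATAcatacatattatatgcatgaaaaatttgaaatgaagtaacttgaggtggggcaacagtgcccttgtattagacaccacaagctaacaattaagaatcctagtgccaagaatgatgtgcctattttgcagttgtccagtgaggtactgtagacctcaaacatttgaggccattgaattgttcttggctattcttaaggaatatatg
Rimkla: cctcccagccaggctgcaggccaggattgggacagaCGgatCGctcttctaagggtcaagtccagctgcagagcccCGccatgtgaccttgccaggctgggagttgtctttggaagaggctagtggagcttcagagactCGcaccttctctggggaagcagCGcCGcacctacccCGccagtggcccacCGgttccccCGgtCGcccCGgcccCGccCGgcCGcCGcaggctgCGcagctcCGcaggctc

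Short motifs were searched in the same promoters on both strands. TATAAA occurred in 7 of the 38 (18.4%), namely Olr59, Sh2d1b, Nfe2l3, Gpr34, Mmp8, Cela1 and Tnnt1, against 6.54% of other genes present in Vector, 7.91% of those in the same count range and 14.3% of all promoters. The E-box CANNTG occurred in 31 (81.6%, against 61.7%, 66.8% and 71.6%), and the STAT motif TTCNNNGAA in 6 (15.8%, against 6.8%, 7.94% and 8.68%). GAGGAAGT, bound by the myeloid factor PU.1, occurred in 1 promoter (Plxnb3), or 2.63% against 2.55%, 2.51% and 2.44%. The TEAD motif GGAATG was present in 6 (15.8%, against 11.1%, 11.2% and 13.9%), the cAMP response element TGACGTCA in 2, Il21r and Runx3 (5.26%, against 3.19%, 3.03% and 1.91%), and the AP-1 motif TGANTCA in 1 (2.63%, against 4.88%, 5.7% and 7.33%). The SMAD box GTCTAGAC was present in 0 (against 0.214%, 0.262% and 0.215%). A match in a window describes its letters and is not evidence of binding.

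By protein class, assigned by hand, receptors were the largest class of the group. Shares of these classes over all genes present in Vector were not counted, so they describe the group alone. There were 12 receptors, 5 channels or transporters and 5 adhesion or other membrane proteins, beside 3 secreted proteins, 8 enzymes, 4 nuclear proteins, 4 cytoskeletal proteins, 4 intracellular signalling proteins and 9 genes listed in the files under an accession-like or LOC symbol. Of the G protein-coupled receptors with symbols starting Gpr or Adgr, 3 of the 43 present in Vector (6.98%) were members. Such receptors under other symbols, among them Bai1 (RefSeq symbol Adgrb1), Cx3cr1 and P2ry12, are outside that count. Of the solute carriers 1 of 223 (0.448%) was a member, near the 0.437% of all genes present in Vector. None of the 243 zinc finger genes, the 166 Tmem genes or the 48 genes of the Cd series present in Vector belonged to the group. At a share of 0.437%, few members would fall in families of these sizes.

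Counts were low in both groups of libraries. Mean Vector levels ran from 0.744 to 11.2 CPM (median 1.65), with 13 members under 1 CPM and 8 above 5 CPM. All members together held 2063, 2109 and 2126 counts in Vector replicates 1, 2 and 3 (0.015%, 0.0141% and 0.0147% of the library) and 68, 65 and 79 counts in the libraries labelled FTO (0.000476%, 0.000493% and 0.000442%). Espn, Il21r, Cntn3 and AABR07062183.1 had 0 counts in every library labelled FTO, 27 had 0 in some and 23 in none, and 3 counts correspond to 0.168 to 0.227 CPM there. Within Vector the highest library was 1.38 times the lowest at the median, from 1.04 for Hoxd9 to 2.11 for Cfap44.

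The separation between groups was fixed by the rule and is a description. The filter for testing passed 50 members, all 50 of which were called lower. That count follows from the way they were chosen, and over all genes 32.8% were called lower and 33.2% higher at an adjusted p under 0.05. The remaining 4 (LOC102554748, Bai1, P2rx1 and Tnnt1) had too few counts to be tested. As ratios of depth-scaled counts, the 50 members with at least 1 count in a library labelled FTO ran from 5.28 (P2rx1, 95% counting interval 2.31 to 14.1) to 242 (Wscd2, 66.5 to 2000), with a median of 21.9. Where the libraries labelled FTO held 0 counts in all, the ratio is a lower bound taken against 3 counts over the group. Intervals cover counting error alone, because reads without molecular identifiers are not independent molecules. Levels are not corrected for gene length, so the order of genes below is one of counted reads.

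**Figure D1:**
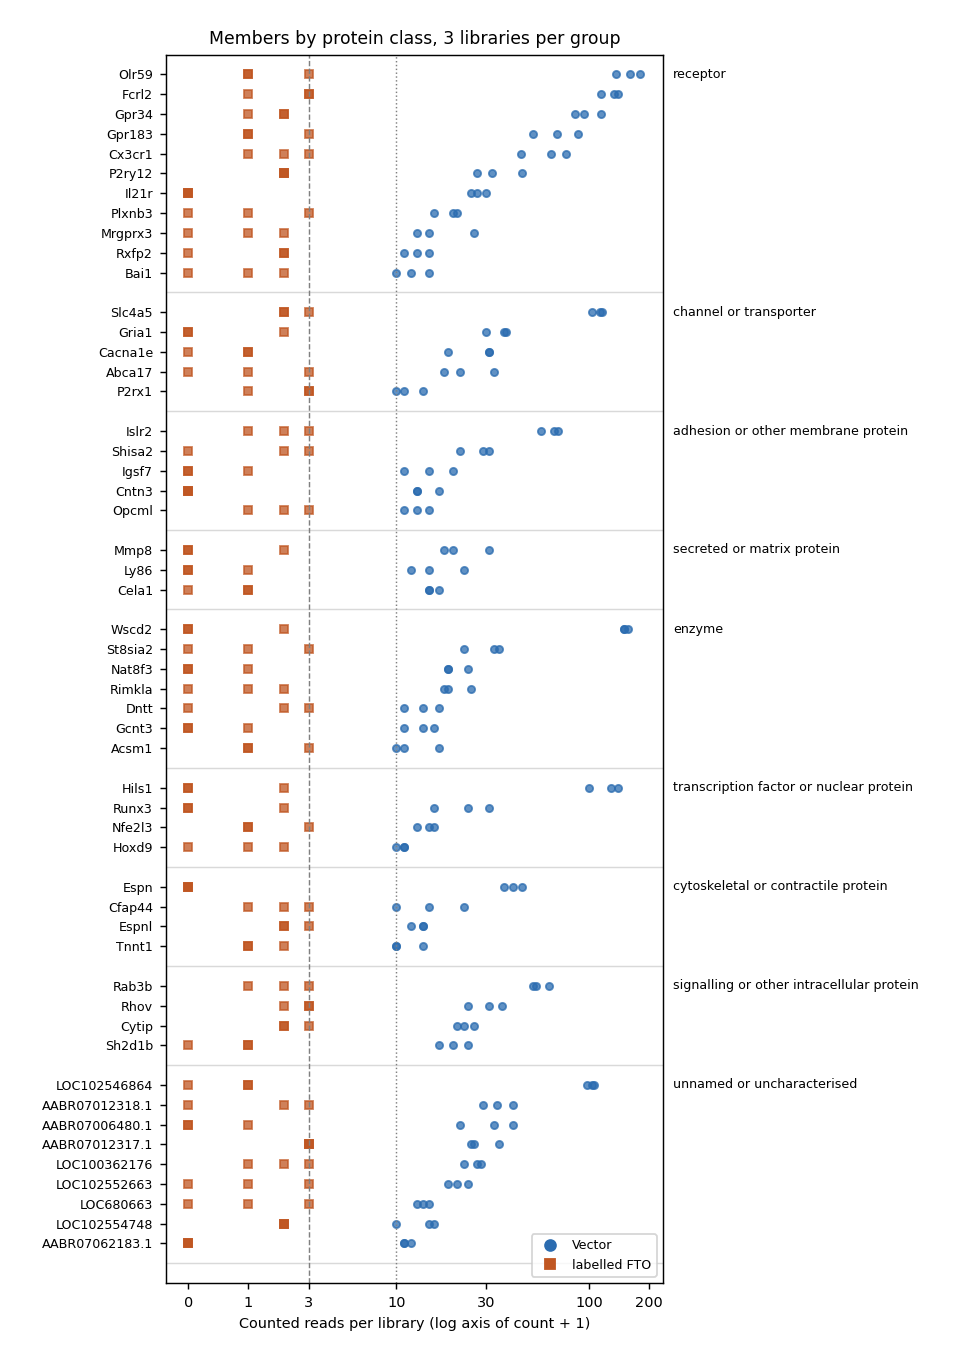
Counted reads of 52 members in each of 6 libraries, on a log axis of count + 1, ordered by protein class and by mean Vector CPM. Circles are the 3 Vector libraries, squares the 3 libraries labelled FTO, and the vertical lines mark the limits of 3 and 10 counts. Receptors, channels or transporters, enzymes, nuclear proteins and unnamed genes each have a member above 100 counts in Vector, and by the rule no square lies beyond 3.

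Among the receptors, the largest number of reads was counted for Olr59, an odorant receptor (RefSeq synonym Or51e2) that is also read outside the nose. It had 162, 137 and 182 counts in Vector and 1, 3 and 1 in the libraries labelled FTO, a ratio of 102 (43.2 to 314). Olr genes are rarely counted in these cells, with 3 of 1093 symbols present in Vector. Fcrl2, an Fc receptor-like scavenger receptor (RefSeq synonym Fcrls) known from microglia, had 115, 140 and 134 counts in Vector and 3, 3 and 1 in the others (58.7, 28.2 to 147). Gpr34, the lysophosphatidylserine receptor of macrophages and microglia, had 85, 115 and 94 against 2, 1 and 2 (62.1, 26.3 to 193). For both genes every Vector library lay above every library labelled FTO by more than 80 counts.

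Cx3cr1, the fractalkine receptor of monocytes and resident macrophages, was the only member on the macrophage marker list. Its counts were 64, 45 and 77 in Vector and 1, 2 and 3 in the libraries labelled FTO (32.7, 14.8 to 90.3). Gpr183, which steers immune cells along oxysterol gradients, had 88, 52 and 69 against 1, 1 and 3 (44.1, 18.6 to 137), and the Vector libraries of both genes were less even than those of Wscd2 or Islr2. P2ry12, the ADP receptor of platelets and microglia, had 27, 32 and 46 against 2 in each (18.5, 8.21 to 51.5). Il21r, a lymphocyte cytokine receptor, had 27, 25 and 30 against 0 in each, at least 28.9-fold lower in the libraries labelled FTO. These receptors share a known use in blood-derived cells and differ in ligand.

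The other receptors reported here were Plxnb3 (a semaphorin receptor), Mrgprx3 (a Mas-related receptor), Rxfp2 (the receptor of the hormone Insl3) and Bai1 (the adhesion receptor now named Adgrb1). Their mean Vector levels lay between 0.865 and 1.33 CPM. Each had between 10 and 26 counts in a Vector library and at most 3 in the others.

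Of the channels and transporters, Slc4a5, a sodium bicarbonate cotransporter of kidney and choroid plexus, had the most reads. Its counts were 117, 114 and 104 in Vector and 2, 3 and 2 in the libraries labelled FTO (50.5, 24.2 to 127). Gria1, an AMPA-type glutamate receptor subunit, had 30, 37 and 38 against 0, 0 and 2 (55.4, 15 to 464). Cacna1e, the pore of the R-type calcium channel, had 31, 31 and 19 against 1, 0 and 1 (42.8, 11.5 to 359). Both of these channel genes are chiefly known from neurons. Abca17, an ABC transporter, reached 33 counts in Vector, and P2rx1, an ATP-gated channel of platelets and smooth muscle, reached 14.

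The adhesion group was led by Islr2, a leucine-rich repeat and immunoglobulin domain protein of growing axons, with 57, 67 and 70 counts against 1, 3 and 2 (34.1, 15.4 to 94.1). Shisa2, which holds back maturation of Wnt and FGF receptors, had 22, 29 and 31 against 3, 2 and 0 (17.3, 7.12 to 54.7). Igsf7, an immunoglobulin superfamily membrane protein, had 11, 15 and 20 against 0, 1 and 0 (48.6, 8.29 to 1960), an interval that a single read sets. Cntn3 and Opcml are membrane-anchored adhesion proteins of neurons. Cntn3 had 17, 13 and 13 counts against 0 in each (at least 15.1-fold lower), and Opcml 15, 13 and 11 against 3, 1 and 2.

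The secreted proteins were Mmp8, the collagenase of neutrophils, Ly86, which is held at the cell surface by the receptor Cd180, and Cela1, an elastase first known from pancreas. Mmp8 had 31, 20 and 18 counts against 0, 2 and 0. Ly86 had 15, 12 and 23 against 0, 1 and 0, and Cela1 17, 15 and 15 against 1, 0 and 1. No library labelled FTO held more than 2 counts of any of these genes, and the ratios lay between 24.8 and 52.8.

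The enzymes acted on lipids, sugars, small peptides and DNA. Wscd2, a membrane protein with a sulfotransferase domain, had 151, 157 and 150 counts against 0, 2 and 0 and showed the largest ratio of the group. St8sia2, which builds polysialic acid on the neural adhesion molecule Ncam1, had 23, 33 and 35 against 1, 0 and 3 (24.0, 9.06 to 90.0). Nat8f3, an N-acetyltransferase, and Rimkla, which makes the neural dipeptide N-acetylaspartylglutamate, had mean Vector levels of 1.45 and 1.44 CPM. Dntt (the template-free DNA polymerase of developing lymphocytes), Gcnt3 (a mucin glycosyltransferase) and Acsm1 (a medium-chain acyl-CoA synthetase) were under 1 CPM.

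Among the nuclear proteins, Hils1, a linker histone of maturing sperm cells, had 140, 130 and 100 counts against 0, 0 and 2 (195, 53.7 to 1620). Runx3, a transcription factor of T cells and sensory neurons, had 24, 16 and 31 against 2, 0 and 0 (37.5, 10 to 315). Nfe2l3, a relative of the oxidative stress factor Nfe2l2, had 16, 15 and 13 against 1, 1 and 3 (9.29, 3.69 to 30). Hoxd9, a positional homeobox gene, had 10, 11 and 11 against 2, 1 and 0, and was both the most even member in Vector and the one with the lowest mean level.

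The cytoskeletal proteins included both espin genes, which bundle actin in the stereocilia of hair cells. Espn had 37, 46 and 41 counts against 0 in each library labelled FTO (at least 43.6-fold lower), the highest Vector level of the members at 0 throughout. Espnl had 14, 14 and 12 against 3, 2 and 2 (6.03, 2.67 to 16.0). Cfap44, a protein of cilia and flagella, had 10, 23 and 15 against 1, 2 and 3, and Tnnt1, slow skeletal muscle troponin T, reached 14 counts in Vector.

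Of the intracellular signalling proteins, Rab3b, a GTPase of vesicle release, had 54, 63 and 52 counts against 3, 1 and 2 (29.7, 13.4 to 82.2). Rhov, another small GTPase, had 24, 36 and 31 against 2, 3 and 3, and Cytip, a cytohesin-binding protein of blood cells, 26, 21 and 23 against 3, 2 and 2. Sh2d1b, an adaptor of SLAM family receptors, had 20, 17 and 24 against 1, 0 and 1.

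The 9 genes listed under such symbols included LOC102546864 (RefSeq symbol C130050O18Rikl), with 104, 106 and 98 counts against 1, 0 and 1 (163, 44.6 to 1350). AABR07012318.1 had 41, 29 and 34 against 2, 0 and 3, and AABR07006480.1 had 22, 41 and 33 against 0, 0 and 1. The others were AABR07012317.1, LOC100362176, LOC102552663, LOC680663 (RefSeq symbol Radx), LOC102554748 and AABR07062183.1, with mean Vector levels from 0.791 to 1.99 CPM. In all, 49 members matched a RefSeq entry, each of them protein-coding.

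Near the limits of the rule the group had no sharp edge. At the lowest allowed Vector count of 10 lay 7 members (Cfap44, LOC102554748, Acsm1, Bai1, P2rx1, Tnnt1 and Hoxd9), and 26 members reached 3 counts in a library labelled FTO. Just outside were 34 genes whose highest count in a library labelled FTO was 4 or 5 and 16 genes whose lowest Vector count was 8 or 9. Atp8a2 had 64, 76 and 70 counts against 3, 4 and 2, and Cd8a had 55, 69 and 55 against 3, 2 and 4, so both missed by 1 count in 1 library. C1qb (274, 279 and 294 against 1, 1 and 2) and C1qc (247, 204 and 218 against 2, 1 and 2), subunits of the first complement component, met the count limits and were left out by their prefix.

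By the cells in which the genes are chiefly known, 13 members were assigned to blood cells, 10 to the nervous system and 22 to various other tissues, and 9 were listed under accession-like or LOC symbols. Blood cell members summed to 39.8, 35.1 and 41.3 CPM in the 3 Vector libraries and 1.26, 1.28 and 1.12 CPM in the libraries labelled FTO. Nervous system members summed to 20.6, 20.7 and 20 CPM against 0.842, 0.831 and 0.726. The 22 from other tissues summed to 70.3, 65.8 and 66.6 CPM against 1.89, 2.27 and 1.51. Among the members, genes with a known blood or neural use thus held the smaller part of the Vector reads. C1qb (274, 279 and 294 Vector counts) and C1qc (247, 204 and 218), left out by their prefix, are not in these sums. The order of the parts therefore depends on that prefix rule. In bulk RNA, fewer cells of a type and less RNA per cell cannot be told apart.

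Macrophage markers outside the group mostly fell with it. A listed marker present in Vector stayed outside only by exceeding 3 counts in a library labelled FTO. That these markers remained measurable thus follows from the rule. Of the 36 listed genes 34 were in the files, and of 31 tested outside the group 25 were lower, 5 higher and 1 not called (median log2 fold change -1.85, against 0.00 over all genes tested). The list summed to between 2890 and 2920 CPM in Vector and between 699 and 779 CPM in the libraries labelled FTO, and Marco was at 0 in every library. Stab1, a scavenger receptor, fell by 5.22 on the log2 scale (SE 0.0917, edgeR adjusted p = 3e-16) and Csf1r, the receptor that keeps macrophages alive, fell by 3.96 (SE 0.0773, edgeR adjusted p = 9.7e-16). The general leukocyte gene Ptprc went from 55.0 ± 1.04 to 15.1 ± 1.68 CPM, the lysosomal gene Cd68 from 111 ± 3.46 to 51.0 ± 6.17 and the lysozyme gene Lyz2 from 1120 ± 22.8 to 97.6 ± 5.8.

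Not all macrophage genes moved that way. Adgre1, which encodes the F4/80 surface antigen, rose by 2.22 (SE 0.133, edgeR adjusted p = 8.4e-10), and the Fc receptor gene Fcgr2b rose by 2.37 (SE 0.0862, edgeR adjusted p = 1.8e-12). Fcgr3a, Clec10a and the chemokine gene Pf4 were the others called higher. The part of these markers in the result was not tested.

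**Figure D2:**
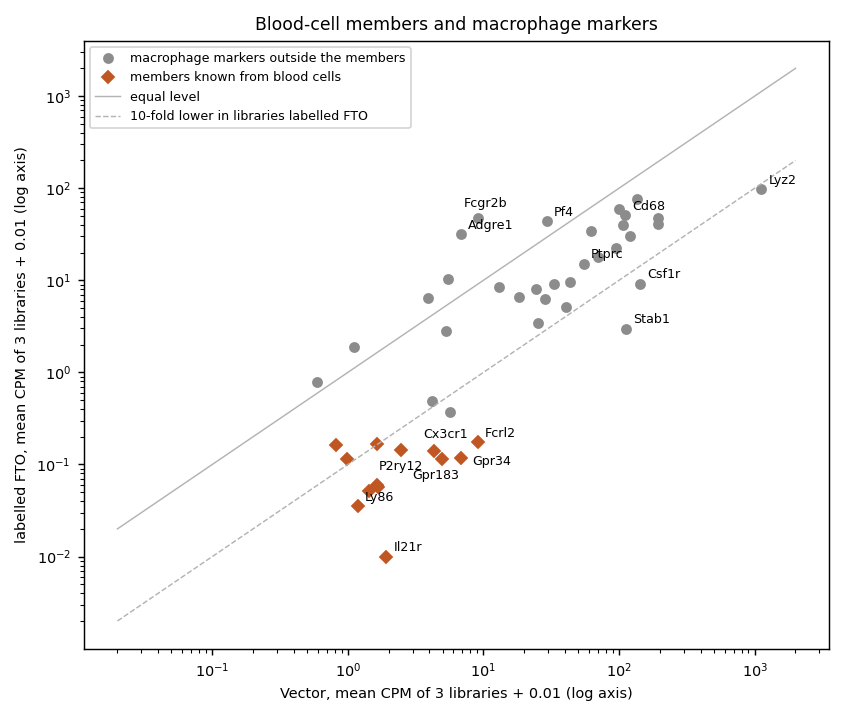
Mean CPM of 3 Vector libraries (x axis) and 3 libraries labelled FTO (y axis), both on log axes with 0.01 added, for the 13 members known from blood cells (diamonds) and the macrophage markers outside the group (circles). Solid and dashed lines mark equal levels and a 10-fold lower level in the libraries labelled FTO. Macrophage markers spread from above the solid line (Adgre1, Fcgr2b, Pf4) to below the dashed line (Stab1, Csf1r), and every diamond lies under 0.2 CPM on the y axis by the rule.

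Most listed genes of lymphocytes, mast cells and neutrophils were nearly absent. Of 18 listed genes in the files, 14 had at most 3 counts in every library and 7 had 0 in all, among them Cd3d, Cd3e, Ms4a1, Cpa3, Mpo and Elane. Il21r, Runx3, Dntt and Mmp8, which are known from those cells, had mean Vector levels from 0.974 to 1.91 CPM. On the list, Cd4 (28.6 CPM), Kit (9.0 CPM) and Cd8a (4.15 CPM) stood above them in Vector. The cells that gave these reads were not examined. Of the 4 genes tested, Cd8a (-4.33, SE 0.318), Cd4 (-2.10, SE 0.109) and Kit (-1.95, SE 0.154) were lower and S100a8 was higher. In rats Cd4 is also carried by macrophages.

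Markers of Schwann cells and neurons were mixed. Of 11 tested, 5 were lower, 2 higher and 4 not called, and the summed level was between 165 and 171 CPM in Vector and between 113 and 118 CPM in the libraries labelled FTO. Most of that sum was Tubb3, a tubulin gene used in neurons and in other cells, which went from 116 ± 4.31 to 73.0 ± 0.534 CPM. S100b fell by 2.17 (SE 0.293) and Erbb3 (-1.67, SE 0.133), Sox10 (-1.60, SE 0.443) and Gfap (-1.61, SE 0.426) were lower too, while Snap25, a protein of vesicle fusion, had 0 counts in Vector and 20, 45 and 27 in the libraries labelled FTO. The neuronal gene Th had at most 1 count in any library. The other cell type lists held no member, and their share in the result was not tested.

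The counts of the remaining lists are to be read against the 32.8% of all genes called lower and the 33.2% called higher. All 18 interferon response genes tested were higher (median log2 fold change 7.59), as were 20 of 22 cardiomyocyte genes. Of 13 mural cell genes 10 were lower, and of 20 genes of TGF-beta signalling and myofibroblasts 14 were lower and 3 higher. Of 17 cardiac fibroblast markers 6 were lower and 9 higher. Lower and higher calls numbered 4 and 7 of 13 for endothelial genes, 2 and 8 of 12 for epicardial genes, 9 and 3 of 14 for chondrocyte and tendon genes, 2 and 2 of 4 for bone genes and 3 and 2 of 5 for adipocyte genes. They numbered 1 and 1 of 3 for epithelial genes, 3 and 3 of 7 for skeletal muscle genes and 5 and 12 of 23 for secreted Wnt and BMP factors, and no erythroid gene had enough counts to be tested. Several of these shares lie near those of all genes. Whether these values bear on the 54 genes was not tested.

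Genes of the same families did not fall as a block. Of 80 paralogs in the files 47 could be tested outside the group, and 17 (36.2%) were lower, 18 (38.3%) higher and 12 not called, close to the 32.8% and 33.2% of all genes. Islr, the paralog next to Islr2, fell from 118 ± 5.42 to 6 ± 1.2 CPM (log2 fold change -4.28, SE 0.0938). The contactin genes Cntn6 (-3.43, SE 0.321) and Cntn2 (-1.48, SE 0.117) fell as well, as did the relaxin receptor Rxfp1 (-1.75, SE 0.215), the glycosyltransferase Gcnt1 (-1.86, SE 0.117) and the transcription factors Runx1 (-1.04, SE 0.0696) and Runx2 (-0.58, SE 0.111).

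Other paralogs rose while the member was lost. Ntm, an IgLON relative of Opcml, rose by 2.10 (SE 0.143), and the ATP-gated channel P2rx4 by 1.07 (SE 0.0557). Mmp13, the collagenase in the same gene cluster as Mmp8, had 2, 0 and 0 counts in Vector and 67, 56 and 72 in the libraries labelled FTO. Calcium channel genes split, with Cacna1b (-1.25, SE 0.195) and Cacna1c (-1.17, SE 0.0878) lower and Cacna1d (1.74, SE 0.206) and Cacna1h (1.64, SE 0.177) among those higher. The bicarbonate transporters split in the same manner, with Slc4a2 and Slc4a7 lower and Slc4a4 higher.

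Ligands and partners of the members were more often higher than lower. Of 17 tested, 10 were higher (58.8%), 3 lower (17.6%) and 4 not called. Cx3cl1, the ligand of Cx3cr1, rose from 47.0 ± 1.92 to 253 ± 14.2 CPM (2.43, SE 0.0552, edgeR adjusted p = 5.9e-15). The enzymes around the oxysterol ligand of Gpr183 were all higher, with Ch25h, which starts its synthesis, at 1.11 (SE 0.0765), Cyp7b1, which completes it, at 4.69 (SE 0.105, from 5.18 ± 0.688 to 134 ± 14.3 CPM) and Hsd3b7, which degrades it, at 0.52 (SE 0.0703). The RNA of Cx3cl1 and of these enzymes was thus higher in the same libraries in which the receptor was at 1 to 3 counts. The oxysterol itself was not measured, and the enzymes called higher both make and degrade it.

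Il2rg, the common chain that pairs with Il21r, rose by 1.86 (SE 0.22), while the ligand Il21 was at 0 in every library. Sema5a, the ligand of Plxnb3, rose by 2.43 (SE 0.109), and Cd180, the partner of Ly86, by 0.53 (SE 0.0711). Ncam1, the carrier of the polysialic acid made by St8sia2, fell from 207 ± 7.45 to 63.3 ± 1.49 CPM (-1.71, SE 0.0478). Cbfb, the partner of the Runx factors, stood at 99.2 ± 4.59 and 99.4 ± 1.16 CPM.

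**Figure D3:**
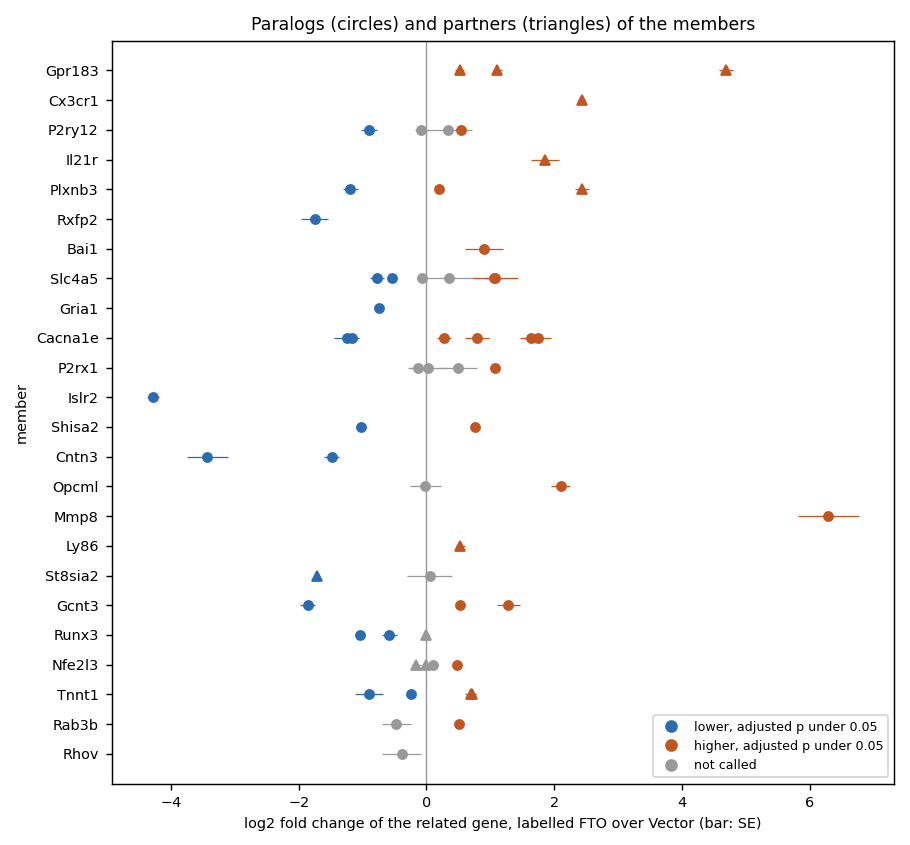
Log2 fold change, libraries labelled FTO over Vector, of paralogs (circles) and ligands or partners (triangles) of each plotted member that has any tested, with bars of 1 SE. Blue and orange mark genes called lower and higher at an adjusted p under 0.05 and grey those not called. Circles fall on both sides of 0, from Islr at -4.28 to Mmp13, and the triangles of Gpr183, Cx3cr1, Il21r, Plxnb3 and Ly86 lie to the right of 0.

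Along the chromosomes the members that could be placed were scattered. The 49 with a RefSeq position lay on 15 chromosomes (7 on chromosome 1 and at most 5 on any other), and no pair of these were nearest tested neighbours of each other. Members without a position, among them AABR07012317.1 and AABR07012318.1, were not examined for this. The nearest tested gene on each side was lower more often than genes in general. Of 98 such neighbours 57 were lower (58.2%), 24 higher (24.5%) and 17 not called, against 32.7% lower and 33.4% higher of 12504 placed genes outside the group. At the following 4 places out from the member between 36.7% and 41.8% were lower. The median log2 fold change of the nearest neighbours was -0.25, 27 were lower and 10 higher by at least 2-fold, and for 18 members both sides were lower.

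The nearest neighbours with the largest decreases were Atp8a2 beside Shisa2 (-4.56, SE 0.312), RGD1559482 beside Igsf7 (-4.33, SE 0.288), Islr beside Islr2, Atp2a3 beside P2rx1 (-4.25, SE 0.315), Cd8b beside LOC102552663 (-4.22, SE 0.395) and F13a1 beside Ly86 (-3.96, SE 0.274). Wscd2, the member with the largest ratio, lay between Cmklr1 (-3.21, SE 0.0757), a chemoattractant receptor, and RGD1306556 (-2.29, SE 0.104). Cela1 lay between Bin2 (-1.60, SE 0.145) and Galnt6 (-3.42, SE 0.185), and Igsf7 next to Cd300a (-2.86, SE 0.15), an inhibitory receptor of myeloid cells. Without genes that share a name stem with the member or are listed as its relative, 52 of 90 neighbours (57.8%) were lower. Relatives under other names and not listed would remain in that count.

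Neighbours of the blood cell members were lower in 12 of 26 cases (46.2%) and higher in 9. Those of nervous system members were lower in 7 of 20 (35.0%), near the 32.7% of all placed genes outside the group, and higher in 10. Beside members from other tissues, which by the hand assignment include Igsf7, 33 of 44 (75%) were lower and 4 higher. Some neighbours rose strongly. Mmp10, a matrix metalloproteinase gene beside Mmp8, had 0 counts in every Vector library and 33, 56 and 39 in the libraries labelled FTO, and Gprc5b beside Acsm1 rose by 1.91 (SE 0.0734). Il4r, a cytokine receptor beside Il21r, rose by 1.62 (SE 0.0437), the muscle gene Xirp1 beside Cx3cr1 by 1.59 (SE 0.0728), the glutamine synthetase gene Glul beside Cacna1e by 1.57 (SE 0.0421) and Tnni3 beside Tnnt1 by 1.89 (SE 0.134). On either side of Gpr34 both Maoa (0.79, SE 0.0498) and Nyx (2, SE 0.233) were higher. The use of strand in counting is not given in the sources used here, so reads of overlapping or neighbouring transcripts cannot be told apart from those of a member.

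**Figure D4:**
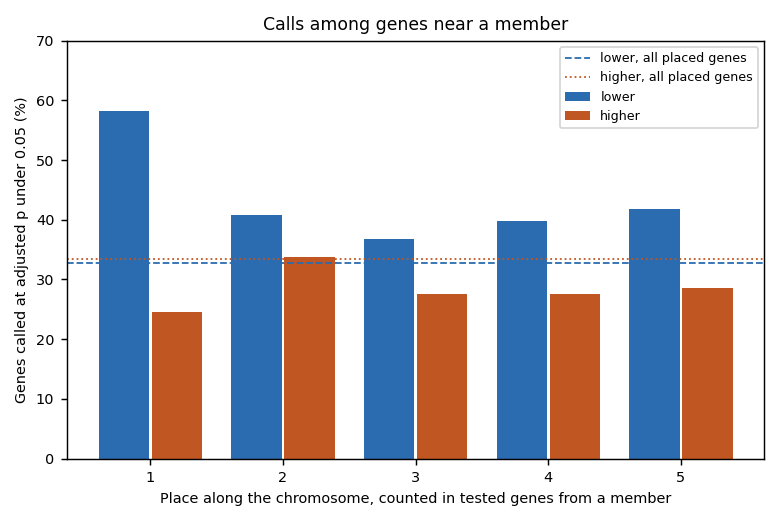
Percent of tested genes called lower (blue bars) and higher (orange bars) at the first to the fifth place out from a member along the chromosome, with 98 genes at each place. Horizontal lines give the percent over all placed genes outside the group, 32.7% lower and 33.4% higher. The first place stands at 58.2% lower, and the following places between 36.7% and 41.8%.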

How the data were processed

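Total RNA of NRCFs was sequenced in 6 libraries, 3 Vector and 3 labelled FTO, made with a commercial kit. The authors deposited raw read counts for each gene symbol. The submitters' processing notes name Trimmomatic and the build rn6. The aligner, the counter and its strand setting, and the annotation are not given in the sources used here, so reads of near-identical copies may be split or lost. Genotype labels gave the groups, and sample titles the replicate numbers.

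Counts were fitted in edgeR 4.0.16 (R 4.3.3) with filterByExpr at a minimum count of 10, TMM scaling (factors 0.995 to 1.01), glmQLFit and glmQLFTest, two-sided, with Benjamini-Hochberg adjustment. Of 12941 genes tested 8531 were called (4239 lower, 4292 higher) at an adjusted p under 0.05. The script was tested on simulated data. Ratios of summed depth-scaled counts carry 95% exact conditional binomial (Clopper-Pearson) intervals. Alternatives were DESeq2 1.42.0, other scalings, no filter, a replicate block and leaving out each library.

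The members, 17 gene lists, relatives and protein classes were chosen with earlier results of these data known, and classes and cells of origin were assigned by hand from textbook knowledge. All members but 2, whose values are not reported here, were named and plotted. Counts per library were given for the 3 of each class with the most Vector reads and for members on a cell type list, and further ones were added after their values were seen. List genes, relatives and neighbours were named for the largest changes or for a known tie to a member. The printed promoters were chosen after values were seen. RefSeq GRCr8 is not the build of the counts and served for names, gene order and promoter sequence.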

Additional observations from a re-analysis of the deposited data

How the results depend on the processing

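The size of the group follows its limits. The 54 members became 124 with at least 5 Vector counts, 24 with at least 20, 4 with 0 counts in the libraries labelled FTO, 13 with at most 1 and 88 with at most 5. Scaled to the smallest library the rule gave 50 genes, 45 of them shared. Leaving out 1 library gave 57 to 70 genes, including all 54. With at least 20 Vector counts, 2 members held TATAAA in place of 7. The group is then 24 genes, and how many of those have a promoter entry was not counted, so these numbers are not shares. Under the 11 other fits the number of genes called ran from 7795 (DESeq2) to 9009 (no filter), against 8531, and the nearest neighbours called lower from 43 (no filter, 43.9% against 26.1% of all genes tested) to 59. Lower calls among Wnt and BMP secreted factors rose from 5 to 8 without the filter. On the epithelial list, leaving out 1 library gave 0 to 1 lower call, and the 0 came without Vector replicate 2. Fto stayed between 0.051 and 0.078 on the log2 scale (adjusted p from 0.18 to 0.45). Of 244 values of counts, lists and Fto, 236 were judged unchanged. A count had to stay within a set fold of the main value, and Fto to keep its direction and side of the threshold. Of 1034 values of the 94 named genes outside the group, 1032 kept their direction and side of the threshold. The exceptions among the latter concerned the Cbfb log2 fold change, 0.003 with all libraries, which ran from -0.035 (without Vector replicate 2) to 0.031 when 1 library was left out and was called under none of the alternatives.

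Replicate numbers are shared by the groups. Whether they pair the libraries is not known, and 3 libraries per group are too few to exclude it. Same-numbered libraries deviated from their group means with correlations of 0.00284, -0.0693 and 0.0207, within the -0.0935 to 0.0873 of differently numbered ones. With the replicate block 8399 genes were called. Libraries of a group differed from each other by more than sampling noise (chi-square per degree of freedom 1.58 to 8.38). Depth limits the ratios of members with few reads in the libraries labelled FTO, such as AABR07006480.1 with 1 read (17.8 to 4040).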
